A study of Mus musculus with 2 samples.

Results

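Among barcodes of 2 single-cell libraries of mouse gut T cells, a small set stood out by UMIs (unique molecular identifiers, counted here as RNA molecules) of Folr1 and of the pseudogene Rps19-ps6. Members of the set were chosen by those measured values. Barcodes with fewer than 500 UMIs, fewer than 300 genes or more than 10% mitochondrial UMIs were dropped, and a kept barcode was a member with at least 3 Folr1 and at least 5 Rps19-ps6 UMIs. The rule found 71 members among 10693 kept barcodes, 50 of 5028 in the SAP library and 21 of 5665 in the Control library. The remaining 4978 SAP and 5644 Control barcodes, called the others below, number 10622. No barcode outside the filters passed both gene thresholds.

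The study cultured gut T cells from the ileum of GF mice with dendritic cells that had been exposed to phages, taken from SAP mice or from healthy mice, and used the FucoID reaction to tag T cells touched by a dendritic cell. Its labels name the libraries only SAP and Control, with tissue ileum and T cells as the cell type. The libraries are taken as that pair without further detail, and age, strain and pooling of animals are not stated. Each group is 1 library, made with a 10x 3' kit of version 3, so every difference below has no replicate check and no p-value. Intervals are 95% and cover counting error only.

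Folr1 encodes folate receptor alpha, a lipid-anchored surface protein of some epithelia that carries folate into cells. Krt18 encodes a keratin of simple epithelia, and S100a6 a small calcium-binding protein. Processed pseudogenes are old copies of messenger RNAs that were reverse transcribed into the genome, and ribosomal protein genes have left many of them. A mouse T cell uses the coding genes, and a pseudogene collects UMIs mostly where its letters match a read better than those of its parent.

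The genes of the rule and the other markers of the set lie on 4 chromosomes of mm10 (GRCm38). Folr1 is at chr7:101858331-101870788 on the minus strand, Krt18 at chr15:102028180-102032027 on the plus strand and S100a6 at chr3:90612882-90624181 on the plus strand. Rps19-ps6, an annotated processed pseudogene, is at chr12:110898114-110898551 on the plus strand, and Rps19, the coding gene it matches best, is at chr7:24884371-24889806 on the plus strand. Below are the last 180 coding bases of Rps19 with the aligned bases of its pseudogene, and the same for S100a11 (chr3:93520488-93526287, plus strand) and S100a11-ps (chr12:73961142-73961447, plus strand). They are shown because members put most of each family's UMIs on the pseudogene and the others on the coding gene. For Rps19-ps6 the rule used those UMIs, so its pair is a description only. The mouse reference sequences are from GENCODE M21 transcripts, written 5' to 3', with capitals at the bases where each pair differs. Rps19-ps6 and Rps19 differ at 4 of the 180 bases (97.8% identity), and S100a11-ps and S100a11 at 12 (93.3% identity).
Rps19-ps6: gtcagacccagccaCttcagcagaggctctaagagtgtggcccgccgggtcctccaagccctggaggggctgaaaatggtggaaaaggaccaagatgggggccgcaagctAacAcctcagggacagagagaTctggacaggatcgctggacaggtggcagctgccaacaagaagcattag
Rps19: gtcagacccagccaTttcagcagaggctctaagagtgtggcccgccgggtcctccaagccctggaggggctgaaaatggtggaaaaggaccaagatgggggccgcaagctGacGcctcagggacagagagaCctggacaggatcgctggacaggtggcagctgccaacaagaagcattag
S100a11-ps: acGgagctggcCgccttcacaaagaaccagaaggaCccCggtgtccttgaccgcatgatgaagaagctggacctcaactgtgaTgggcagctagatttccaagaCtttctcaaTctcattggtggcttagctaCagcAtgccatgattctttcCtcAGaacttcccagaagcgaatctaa
S100a11: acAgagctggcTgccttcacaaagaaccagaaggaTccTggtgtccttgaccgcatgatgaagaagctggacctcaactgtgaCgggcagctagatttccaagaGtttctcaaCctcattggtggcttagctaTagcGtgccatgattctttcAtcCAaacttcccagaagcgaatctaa

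Members were 0.994% of kept SAP barcodes (exact interval 0.739% to 1.31%) and 0.371% of kept Control barcodes (0.230% to 0.566%). They held 7.72% of kept SAP UMIs and 2.91% of kept Control UMIs. Their depth was far above that of the others: 947 to 72303 UMIs with a median of 30678 in SAP members and 752 to 67595 with a median of 24601 in Control members, against medians of 3400.5 in SAP others and 3138.5 in Control others. A count threshold favours deep barcodes, so depth is not independent of the rule. There were 37 SAP and 12 Control members with 20000 UMIs or more, a depth that 4 SAP and 2 Control others reached. The median member had 4598.5 genes in SAP and 3576 in Control, the median of the others 1357 in SAP and 1250 in Control. The libraries shared 6 barcodes, of which 0 were members. Doublets were not called here.

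Folr1 and Rps19-ps6, which chose the members, are given as a description. Folr1 stood at 730 to 13617 CPM (UMIs per 1000000 UMIs of the barcode) with a median of 5175 in SAP members and at 1787 to 11591 with a median of 5132 in Control members. Its median was 0 in the others of both libraries, where 46 SAP and 23 Control barcodes had any UMI. Rps19-ps6 stood at 1427 to 10423 CPM with a median of 8108 in SAP members and at 1697 to 11968 with a median of 7602 in Control members, again with a median of 0 in the others. Summed over barcodes, Folr1 reached 5947 CPM in members and 2.19 CPM in the others, and Rps19-ps6 7793 and 10.98 CPM. Every barcode with 3 Folr1 UMIs passed the Rps19-ps6 threshold, so Folr1 alone would have chosen the same 50 and 21 barcodes.

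At the edge of the rule, 5 members had 3 or 4 Folr1 UMIs, and 4 of these held 35.6% to 39.7% of their UMIs on pseudogenes while 1 held 13.8%. Just outside, 6 barcodes had 2 Folr1 UMIs and at least 5 Rps19-ps6 UMIs, and they held 30.6% to 39.9%.

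The label held in its parts: T cell RNA was nearly missing and pseudogene RNA was abundant. Annotated pseudogenes took 7.35% to 40.9% of a barcode's UMIs with a median of 27.5% in SAP members, and 7.23% to 39.7% with a median of 26.9% in Control members. The medians were 0.410% in SAP others and 0.387% in Control others. In sums, the share was 26.7% in SAP members, 26.8% in Control members, 0.448% in SAP others and 0.411% in Control others. Over both libraries it was 62.4 times as high in members as in the others (62.1 to 62.8), and it stayed at 26.0% in members when Rps19-ps6 was left out. No other barcode lay between 10% and 20%, and 7 members lay under 20%.

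**Figure D1:**
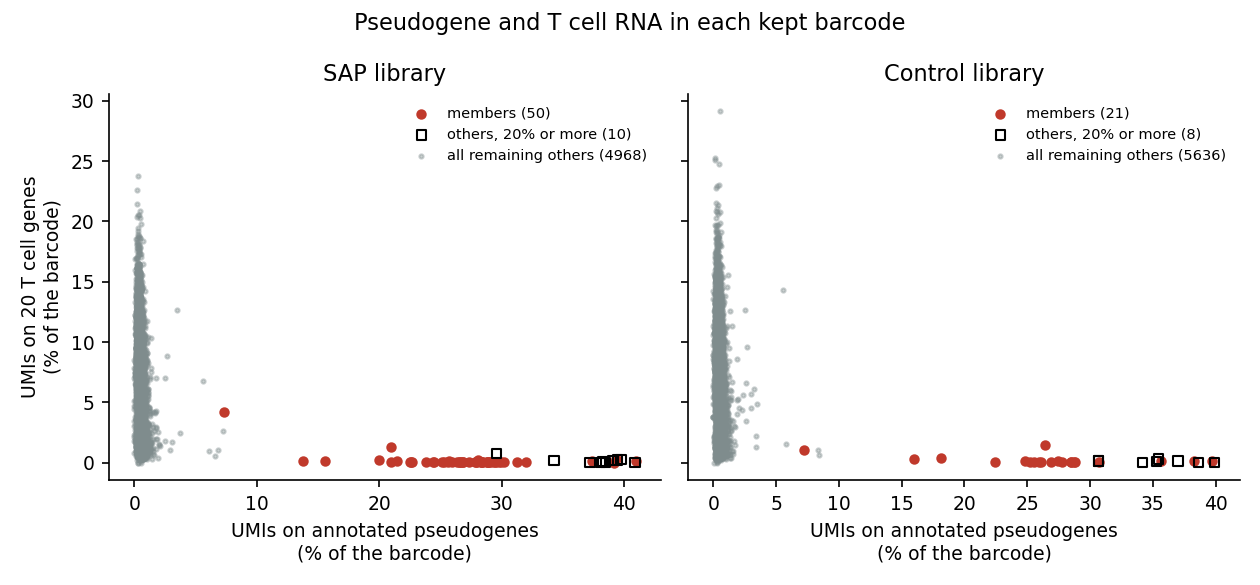
Share of UMIs on annotated pseudogenes (x axis, percent of the barcode) against share on 20 T cell genes (y axis, percent of the barcode) for each kept barcode of the SAP library (left) and the Control library (right). Members (red) sit at 7.23% to 40.9% pseudogene UMIs, most of them with few T cell UMIs and 1 SAP member with 4.19%, the 18 open squares are others with 20% or more, and the grey points are the remaining others.

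Across all genes, 2286 had at least 100 CPM in members or in the others and 50 UMIs over both. Of these, 702 (30.7%) were at least 4-fold higher in members and 715 (31.3%) at least 4-fold lower, so 62% differed by that much in either direction. The median ratio was 1.15. The ratio lay on the same side of 1 in both libraries for 2248 genes. A gene that reached 100 CPM in only 1 of the sets had to differ in that direction: 867 were eligible through members alone and 857 through the others alone. Of the 562 at that level in both, 50 were at least 4-fold higher in members and 47 at least 4-fold lower. Eligible pseudogenes numbered 338, of which 335 were eligible through members alone, so their direction was set by the level filter. Eligible protein-coding genes numbered 1901, with 365 higher, 675 lower and a median ratio of 0.686.

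S100a6 and S100a4 were read mostly in members. S100a6 stood at 748 to 13175 CPM with a median of 6563 in SAP members and at 894 to 16258 with a median of 7195 in Control members, and its median was 0 in the others. Summed, it had 7063 CPM in SAP members, 6836 in Control members, 18.8 in SAP others and 16.3 in Control others, a ratio of 399 over both libraries (369 to 433). S100a4, a relative linked to cell motility, was at 2465 CPM in SAP members, 3106 in Control members, 6.38 in SAP others and 5.67 in Control others (ratio 439, 383 to 505). The groups overlapped for single barcodes, since a few others reached the members' levels, but every SAP and Control member had S100a6 and S100a4.

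Of 10 S100 genes looked up, 5 were eligible, S100a6 and S100a4 through members alone. S100a10, a partner of annexin A2, was 4.15 times as high in members as in the others, and S100a13 2.69 times. S100a11 went the other way, at 7.91 CPM in members and 492 CPM in the others (ratio 0.0161, 0.00918 to 0.0261), while its pseudogene S100a11-ps, printed above, had 1813 CPM in members and 1.44 CPM in the others. Over the 2 pseudogenes matched to S100a11, S100a11-ps among them, pseudogenes held 99.6% of the family's UMIs in members and 2.42% in the others.

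Keratins of simple epithelia were present in part. Krt18 was at 1667 CPM in SAP members, 1872 in Control members, 3.70 in SAP others and 4.05 in Control others (ratio 444, 375 to 529), and all 50 SAP and 20 of 21 Control members had it. Its partner Krt8 was at 148 CPM in members and 3.13 CPM in the others (47.3, 38.0 to 59.3), and Krt7 at 79.1 and 0.499 CPM. Krt17, a keratin of basal and stressed epithelia, had 1179 UMIs in members and 7 in the others (ratio 3003, 1453 to 7485). Other epithelial genes had few UMIs in members. Cldn7, a tight junction protein, had 24 UMIs in members and 50 in the others (8.56, 5.03 to 14.2), Elf3, an epithelial transcription factor, 11 and 11 (17.8), and Cldn4 3 and 1. Low ones were Epcam, an adhesion protein of epithelial cells, with 6 UMIs in members (ratio 0.0392), Cdh1, which encodes E-cadherin, with 1 UMI, Krt19 with 1 UMI and Cldn3 with 0 UMIs. With the list split in this way, no cell type name is given to the set.

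Folate genes beyond Folr1 were mixed. Folr2, a second folate receptor, had 302 UMIs in members and 3 in the others (149 and 0.0832 CPM). The carriers Slc19a1 and Slc46a1 had 0 UMIs in members against 99 and 5 in the others; 0 of the members' UMIs allows up to 1.48 CPM (3 counts). Mthfd1, a folate enzyme, was at 58.8 CPM in members and 7.07 CPM in the others (8.32, 6.64 to 10.4), and Mthfd2, another folate enzyme, at 23.7 and 47.7 CPM (0.497).

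Of 1901 eligible protein-coding genes, 49 were at least 100-fold higher in members, leaving out ribosomal protein and Gm-numbered genes. This set was named after its values were seen. Each of the 49 reached 100 CPM in members alone, so the level filter set its direction. Among them were Folr1, Folr2, S100a6, S100a4 and Krt18, described above, and high ratios were also found for Asphd1 (265 UMIs in members and 1 in the others), Spink5 (257 and 2) and Ak1, adenylate kinase (437 and 4). Several encode parts of the cytoskeleton or its regulators: Cald1 (caldesmon) at 430 CPM in SAP members and 416 in Control members, Tpm2 (a tropomyosin) at 547 and 586, Tubb3 (a beta tubulin) at 503 and 485, and Lmna (lamins A and C) at 604 and 533. Secreted and matrix proteins included Timp1, an inhibitor of metalloproteinases, at 832 CPM in SAP members and 786 in Control members, Fbln1 (fibulin) at 559 and 517, and Mfap5 at 294 and 209. Each of these had under 5 CPM in the others of either library. The ratio was 1136 for Timp1 (773 to 1744), 1316 for Fbln1 (794 to 2359) and 1921 for Cald1 (970.5 to 4464). Transcription factors of the set included Nr2f2 (289 UMIs in members and 3 in the others), Pitx1 (247 and 3) and Tead1 (644 and 24), which binds DNA for the Hippo pathway. Enzymes of redox defence stood with them: Nqo1 at 575 CPM, Prdx4 at 744 CPM and Gstm5 at 1073 CPM in members.

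By likeness to the rule genes, measured as the share of a gene's UMIs inside members over all kept barcodes, 47 genes with at least 50 member UMIs tied at 0 UMIs in the others. They had 51 to 152 UMIs in members, and 25 were pseudogenes and 21 protein-coding. Those with most member UMIs were the pseudogenes Gm15289 (152) and Gm11605 (127) and the coding genes Klhl13 (143), Sdc2, a surface heparan sulfate proteoglycan (130), Fermt2, an adaptor of integrin adhesions (123), and Bicc1, an RNA-binding protein (121). Of 12968 genes with at least 50 UMIs, 1016 had over 50% of them inside members. Members are 0.664% of kept barcodes but held 7.72% of kept SAP UMIs and 2.91% of kept Control UMIs. A share over 50% was found for 651 of 953 pseudogenes (68.3%) and for 358 protein-coding genes, whose total at that floor was not counted. The floor of 50 UMIs adds both sets, so a gene read mostly in members could pass it through its member UMIs alone. These shares therefore depend in part on the filter.

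**Figure D2:**
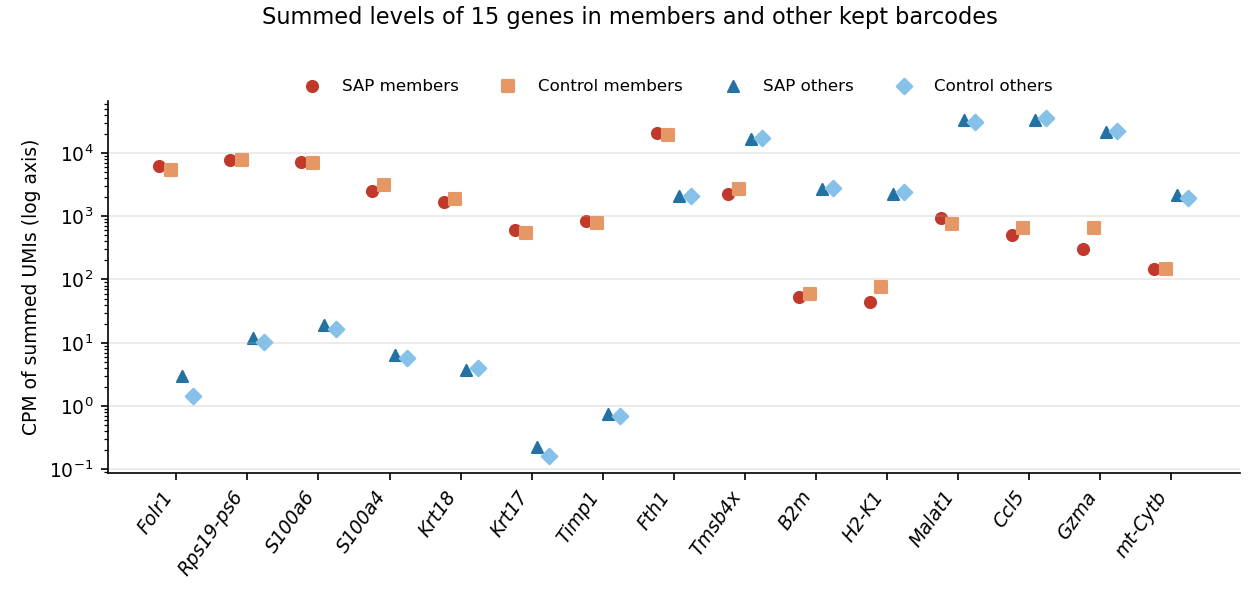
CPM of UMIs summed over SAP members, Control members, SAP others and Control others (log y axis) for 15 genes. SAP and Control members lie close to each other for most genes, with Gzma (309 and 659.5 CPM) and H2-K1 (44.3 and 75.7 CPM) further apart. Folr1 is at 6186 and 5314 CPM in members against 2.96 and 1.46 CPM in the others. B2m is at 53.1 and 59.5 CPM against 2684 and 2785 CPM.

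Most pseudogene UMIs of members belonged to ribosomal protein families. Of the 953 pseudogenes with 50 UMIs or more, 938 (98.4%) matched a coding gene, 406 different parents in all, and 455 of them matched 77 ribosomal protein genes. These ribosomal pseudogenes took 72.8% of the members' pseudogene UMIs. Within the 77 families, pseudogenes held 57.4% of UMIs in members and 0.943% in the others. They held more than 50% in 45 families in members and in 0 families in the others, and the share was higher in members for 75 of 77. These values include Rps19-ps6, which the rule used and which gave 15765 of the 394286 ribosomal pseudogene UMIs of members. Summed over parents and pseudogenes, the ribosomal families were 1.64 times as high in members as in the others; the parents alone were at 0.703.

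The 12 pseudogenes with most UMIs in members, Rps19-ps6 included, all matched ribosomal protein genes except Gstp-ps, whose best match was Gstp2, a glutathione transferase. Rps19-ps6 matched Rps19 at 98.9% identity over 438 bases, and Rps19 itself had 866.5 CPM in members against 1916 CPM in the others (0.452). Gm11687, matched to Rps2 at 97.5% identity, had 4877 CPM in members and 6.35 CPM in the others, whereas Rps2 had 43.5 and 2068 CPM (0.0210). Gm5050, matched to Rpl7a, had 3037 and 3.11 CPM, whereas Rpl7a had 34.6 and 905 CPM (0.0382).

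Not every parent was low. Gm4468, matched to Rpl37, had 7509 CPM in members and 15.3 CPM in the others, and Rpl37 was also high, at 8525 and 4150 CPM (2.05). The remaining named pseudogenes were Rps24-ps3, Gm12165 (matched to Rplp1), Rps16-ps2, Gm5781 (Rps15), Rps3a3, Gm11810 (Rpl35a) and Gm14173 (Rpl37a), with ratios of 227 for Rps3a3 to 639 for Gm12165. Their parents had ratios of 0.0240 for Rpl37a to 0.901 for Rps15. Rps16-ps2 is identical to Rps16 over 441 bases, so the split of their UMIs is uncertain, as it is for any near-identical pair. Over all 77 ribosomal parents, 29 were at least 4-fold lower in members and 1 at least 4-fold higher. The shares over all eligible genes were 31.3% lower and 30.7% higher, but the parents were not filtered by level.

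The same split was seen outside the ribosome. Ftl1, the ferritin light chain, had 97.6% of its family's UMIs on pseudogenes in members and 0.184% in the others, with the coding gene itself at 53.4 and 1264 CPM (0.0422). Fth1, the ferritin heavy chain, was read from the coding gene at 20066 CPM in members and 2098 CPM in the others (9.56, 9.45 to 9.68). Gm14892, matched to Tuba1a, an alpha tubulin, at 87.2% identity, had 1143 CPM in members and 0.444 CPM in the others. Of 275 families with at least 200 UMIs in members, 106 had more than 50% on pseudogenes in members and 1 in the others. Identity to the parent had a median of 95.1% for the 651 pseudogenes mostly in members, 97.9% for 102 with 5% to 50% of UMIs in members and 93.2% for 185 with less.

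**Figure D3:**
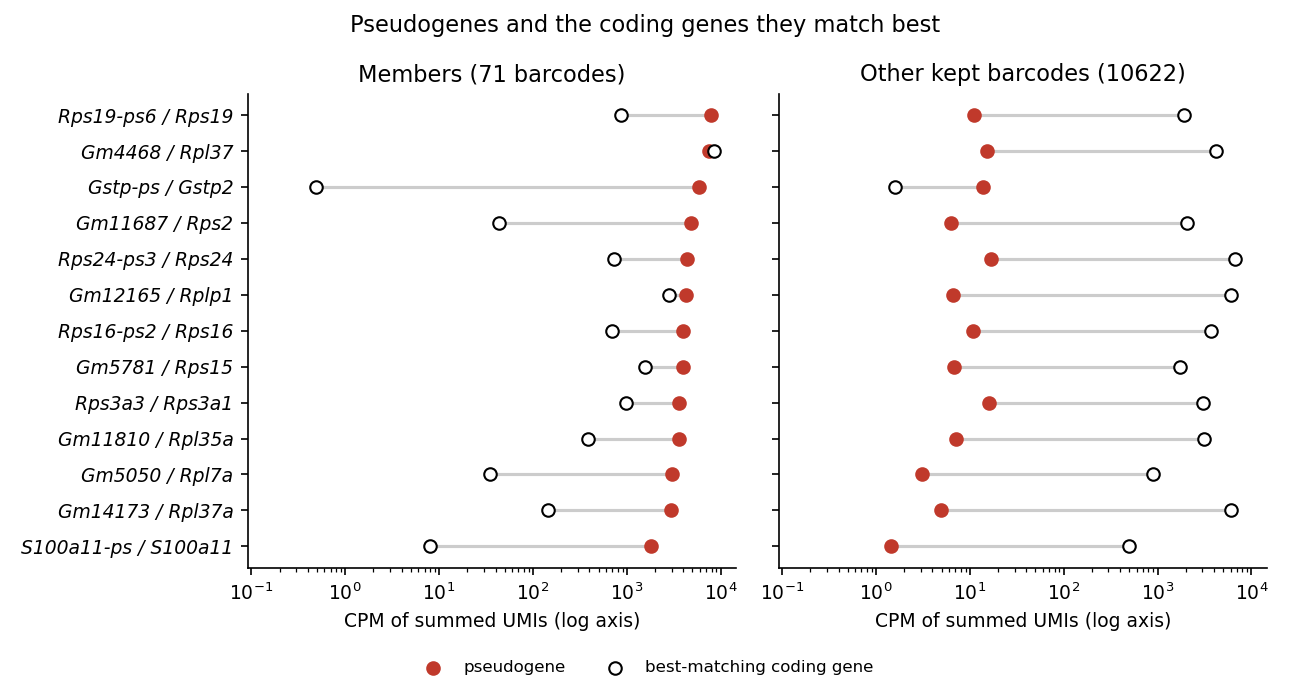
CPM of summed UMIs (log x axis) of 13 pseudogenes (red) and the coding gene each matches best (open) in the 71 members (left) and the 10622 others (right). Each pseudogene is above its parent in members, apart from Gm4468, which lies just under Rpl37. In the others each lies far below its parent except Gstp-ps, at 13.9 CPM against 1.58 CPM for Gstp2. Rps19-ps6 is a gene of the rule.

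T cell genes lay near a common low level in members. Summed over 20 T cell genes, the list had 1179 CPM in SAP members and 1784 in Control members, against 72584 in SAP others and 76544 in Control others, a ratio of 0.0180 (0.0173 to 0.0187). All 17 eligible genes of the list were at least 4-fold lower, against 31.3% of all eligible genes. Their median ratio was 0.0170, against 1.15 over all eligible genes. Apart from Ccl5, Gzma and Itgae, they reached 100 CPM in the others alone, so the level filter set their direction. Cd3g, a chain of the T cell receptor complex, had 24.5 CPM in SAP members and 37.8 in Control members, against 2270 in SAP others and 2254 in Control others (0.0125). Ccl5, a chemokine, stood at 0.0157, and Gzma, a granule protease, at 0.0188. Itgae, an integrin of gut T cells, was the exception, with 108 CPM in members and 570 CPM in the others (0.190, 0.166 to 0.217), while the other 16 genes ran from 0.0100 to 0.0229.

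MHC class I genes, which nearly all nucleated mouse cells express, were also low in members, though above the T list. Summed over the list, their ratio was 0.0218 (0.0197 to 0.0240), against 0.0180 for the T list. B2m, the light chain, stood at 0 to 1962 CPM with a median of 23.7 in SAP members and at 0 to 1018 with a median of 40.6 in Control members, against medians of 2418 in SAP others and 2561 in Control others. In sums B2m was at 0.0201 of the others (0.0165 to 0.0242), H2-K1 at 0.0225 and H2-D1 at 0.0245. All 6 eligible genes of the MHC class I list were at least 4-fold lower, against 31.3% of all eligible genes, with a median ratio of 0.0213. Each reached 100 CPM in the others alone, so the level filter set its direction. At least 1 B2m UMI was found in 32 of 50 SAP members and 13 of 21 Control members.

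The nuclear RNA list, which also holds small RNA host genes, was low too, at a ratio of 0.0299 (0.0286 to 0.0312) against 0.0180 for the T list. Malat1 made up 1151335 of the list's 1269773 UMIs in the others, so the summed ratio is mostly that of Malat1. Neat1, Gas5 and Snhg8 (0.0136) had ratios below the T list's 0.0180, but their intervals included it. These were 0.00684 to 0.0231 for Neat1, 0.0116 to 0.0232 for Gas5 and 0.00653 to 0.0250 for Snhg8. Malat1, a long RNA kept in the nucleus, stood at 0 to 5240 CPM with a median of 451 in SAP members and at 0 to 4473 with a median of 405 in Control members, against medians of 33873 in SAP others and 31771 in Control others. Summed, it was at 0.0278 (0.0266 to 0.0292), Neat1, which builds paraspeckles, at 0.0132 and the small RNA host gene Gas5 at 0.0167. Of 8 eligible genes on the nuclear RNA list, 7 were at least 4-fold lower, against 31.3% of all eligible genes. Mir6236 (98.4 CPM in members, 310 CPM in the others, 0.317) was between. All but Malat1 reached 100 CPM in the others alone, so the level filter set their direction. Long intergenic RNAs as a class held 0.191% of UMIs in SAP members and 0.206% in Control members. In the others they held 4.01% in SAP and 3.86% in Control. Of 13 eligible ones, 12 were at least 4-fold lower, again against 31.3% of all eligible genes. Those that reached 100 CPM in the others alone, Neat1, Snhg12 and Gm12840 among them, had to be lower.

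Mitochondrial RNA split by gene. All 37 mitochondrial genes together took 0.486% of UMIs in members and 1.40% in the others. The ribosomal RNAs mt-Rnr2 (3272 CPM in SAP members, 3339 in Control members, 5962 in SAP others, 5072 in Control others; ratio 0.598) and mt-Rnr1 (0.382) were at 0.524 together. Protein genes of the respiratory chain were at 0.0817 together and varied, with mt-Nd5 at 0.380, near mt-Rnr1, mt-Co1 at 0.173, mt-Cytb at 0.0705, mt-Nd1 at 0.0523 and mt-Nd2 at 0.0187. Matched to mt-Co1 were 2 nuclear copies, which held 85.9% of that family's UMIs in members and 0.516% in the others.

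**Figure D4:**
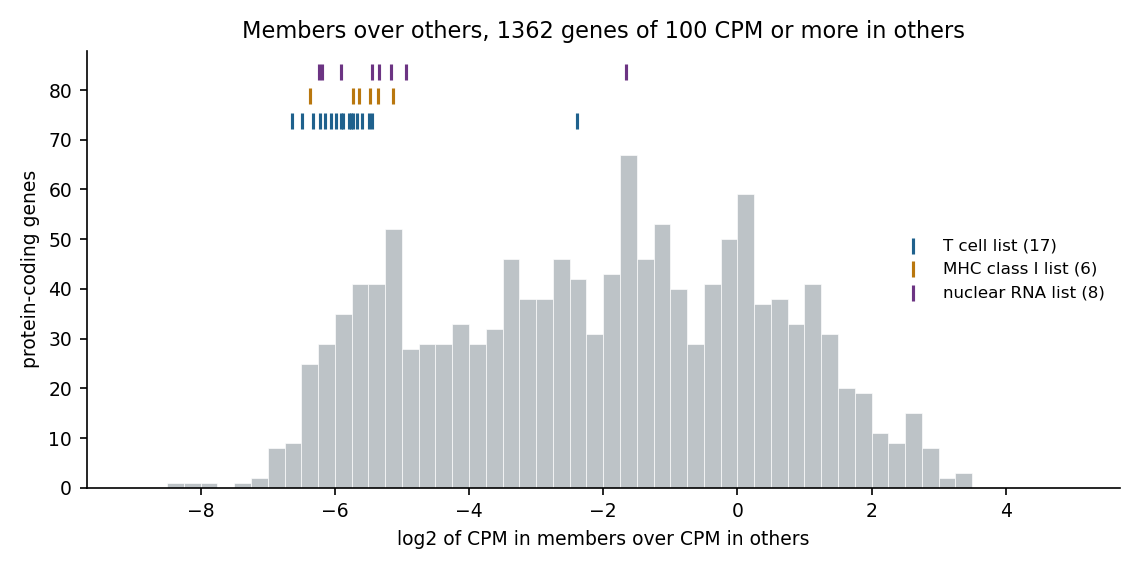
Histogram of the log2 ratio of members over others (x axis) for 1362 protein-coding genes with 100 CPM or more in the others and at least 1 member UMI (y axis, genes per bin), with ticks for the eligible genes of the T cell, MHC class I and nuclear RNA lists. The ticks of the T cell list lie near its median ratio of 0.0170 apart from Itgae, the MHC class I and nuclear RNA ticks overlap them and reach somewhat higher, with Mir6236 far to the right, and the histogram extends on both sides of 0.

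Of 1363 protein-coding genes with at least 100 CPM in the others, 250 were within 2-fold of the T list's median ratio, 10 were under it by more than 2-fold and 779 were at least 10-fold above it. Among genes of any class with the lowest ratios, Ccr9, the gut homing chemokine receptor, had 1 UMI in members and 5995 in the others, Clec2d 4 and 9688, and the gamma chain constant gene Trgc1 5 and 13442. Cd200r2 and Gm12840 had 0 UMIs in members, which with a floor of 3 UMIs over all members puts them at least 82.2-fold and at least 101-fold lower. Igkc, the antibody light chain gene, had 3 UMIs in members and 16362 in the others, but its level in others differed between libraries, at 5.36 CPM in SAP and 878 CPM in Control.

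Genes common to most cells varied by gene, not together. Of 23 eligible abundant cytoplasmic genes, 2 were at least 4-fold higher, 10 at least 4-fold lower and 11 between, with a median ratio of 0.934. Eef1a1, a translation factor, was at 1.46, Gapdh at 1.80 and Cfl1, an actin-severing protein, at 3.52. Tmsb4x, which binds actin monomers, was at 2251 CPM in SAP members and 2705 in Control members, against 16547 in SAP others and 17284 in Control others (0.140), and Actb was at 0.110.

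Cell cycle genes were also uneven. Ccnb1, the cyclin of mitosis, had 93.9 CPM in members and 1.66 CPM in the others (56.5), Cenpf, a kinetochore protein, was at 35.8, Stmn1, which destabilises microtubules, at 15.003 and Top2a at 5.80. Pcna, the sliding clamp of DNA replication, was at 0.0712, and Mki67, a proliferation marker, had 1 UMI in members and 567 in the others. Of the 15 genes in the list, 5 were eligible, 3 of them at least 4-fold higher (30.7% over all eligible genes) and Pcna at least 4-fold lower. Cenpf, Stmn1 and Top2a were eligible through members alone and Pcna through the others alone, so the level filter set their direction. Hmgb2, eligible through both, was at 0.286. All 11 eligible immediate early and heat shock genes were lower, 7 of them at least 4-fold against 31.3% of all eligible genes, with a median ratio of 0.145. Apart from Jun, Junb, Fos and Hsph1, they were eligible through the others alone and so had to be lower.

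Markers of other cells the sample could hold were mostly at 0 in members. At 0 were 5 of 8 B and plasma cell genes, 9 of 12 dendritic and myeloid genes and 7 of 10 enterocyte genes. So were 6 of 8 goblet and Paneth genes, 7 of 8 fibroblast and endothelial genes and 3 of 4 red blood cell genes. Genes with a UMI in any kept barcode numbered 7, 9, 10, 7, 5 and 1 in these lists, in that order. The 3 red blood cell genes had none in the others either. Sis (2 UMIs) and Lyz2 (3 UMIs) had few there, so such zeros say little about members. Summed, the dendritic and myeloid list had 2.72 CPM in SAP members and 3.60 in Control members, against 84.0 in SAP others and 88.1 in Control others. The exceptions were Alpi, intestinal alkaline phosphatase, with 15 UMIs in members and 1 in the others, and Col1a1, a collagen chain, with 44 and 41. Dendritic cells were in the culture, and Cd74 and H2-Aa, their antigen-presenting genes, had 0 UMIs in members.

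Members differed among themselves in depth and in T cell RNA. Their T list level had a median of 0.9996% of the others' level in SAP members and 1.17% in Control members, with highest values of 57.8% and 18.9%; 57 of 71 were under 2%. The 4 members at 10% or more (2 SAP and 2 Control) included the one at 57.8%, which also had a low pseudogene share of 7.35%. Without these 4, the T list ratio was 0.0104, B2m was at 0.0124, the MHC class I list at 0.0156 against 0.0218 with them, and Malat1 at 0.0243, while Folr1 (2749), Krt18 (443) and S100a6 (400) moved little. The part of T cell RNA caught in the same droplet in these values was not tested.

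Shallow members differed in pseudogene and mitochondrial share. Under 5000 UMIs, 7 members had 30% or more pseudogene UMIs (752 to 2880 UMIs, median share 39.1%) with a median mitochondrial share of 0%, and 4 had 7.23% to 18.1% pseudogene UMIs with a median mitochondrial share of 3.18%. The 60 members of 5000 UMIs or more had a median pseudogene share of 26.9% and a median mitochondrial share of 0.443%.

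Traces of the members' genes appeared across the other barcodes at a very low level. Folr1 had 79 UMIs in the others, 22 of them in the 18 barcodes with 20% or more pseudogene UMIs, and Rps19-ps6 had 396, of which 102 were there. In the remaining others, the level was 0.0266% of the members' level for Folr1, 0.105% for Rps19-ps6, 0.209% for Krt18 and 0.225% for S100a6. The part of free RNA in these values was not tested.

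SAP and Control members were close to each other. Of 1529 genes with 100 CPM in either and 50 UMIs over both, 0 (0%) were at least 2-fold higher in SAP members and 1 (0.0654%) at least 2-fold lower. The ratio was within 1.2-fold for 1168 genes and within 1.5-fold for 1489, with a median of 1.01, and the counting interval excluded 1 for 292. Gzma was the gene past 2-fold, at 309 CPM in SAP members and 659.5 CPM in Control members (0.468, 0.407 to 0.538), but without the 4 members of high T list level it was at 168 and 213 CPM (0.790).

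Anxa1, an annexin that binds membranes, was at 75.6 CPM in SAP members and 149.6 CPM in Control members (0.506, 0.377 to 0.680), and at 0.455 without those 4 members. Next lowest were Esf1 at 0.516, Lars2 at 0.534, Rn18s-rs5 at 0.573, Sgk1, Sap30 and Mycbp. The highest were Nfib, a transcription factor, at 109 CPM in SAP members and 61.3 CPM in Control members (1.78, 1.22 to 2.66), Crem at 1.76 and Rbm27 at 1.75, then Wdr44, Mettl5, Ranbp2, Nampt and Fndc3a at 1.71 to 1.72. With 21 Control members from 1 library, none of these has a replicate check.

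Members, more numerous in the SAP library, moved the comparison of the whole libraries. Among 5710 genes with at least 20 CPM in either library, 228 were at least 2-fold higher in SAP over all kept barcodes, and 189 of the 233 eligible pseudogenes were past that fold. Without the members, 0 of 5480 genes were at least 2-fold higher in SAP, and 0 of 40 eligible pseudogenes were. Genes at least 2-fold lower in SAP numbered 5 with members and 4 without. Folr1 was at 480 CPM in SAP and 156 CPM in Control with members (3.08), and at 2.96 and 1.46 CPM without them (2.03). The pseudogene share of the library was 2.48% in SAP and 1.18% in Control with members, and 0.448% and 0.411% without.

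**Figure D5:**
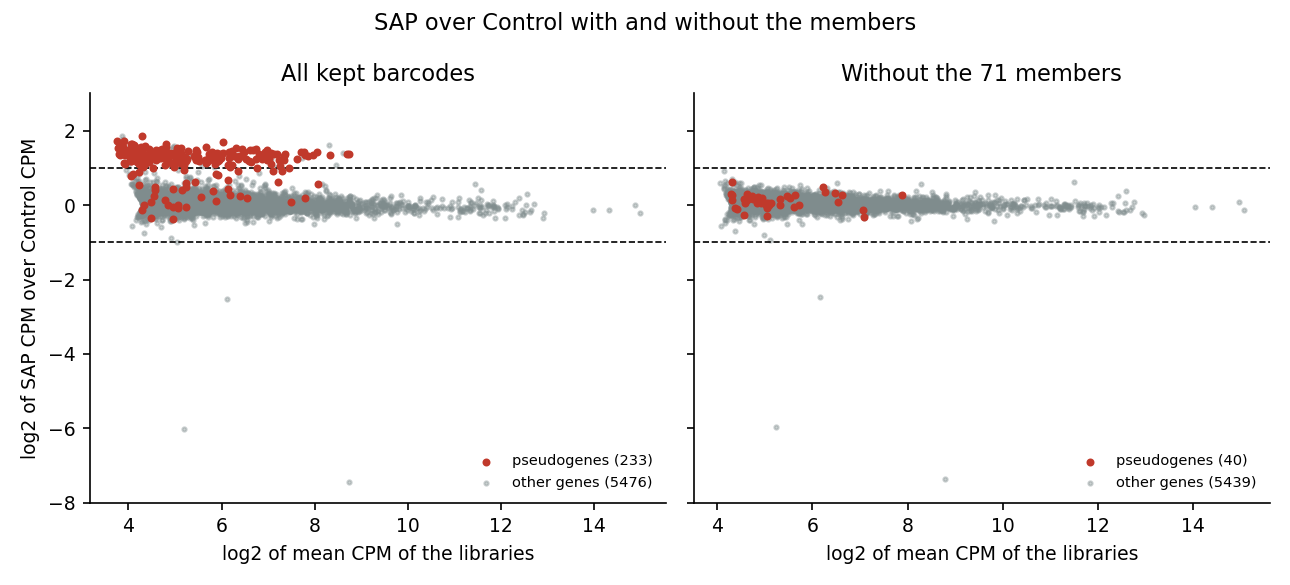
log2 of SAP CPM over Control CPM (y axis) against log2 of the mean CPM of the libraries (x axis) for genes of at least 20 CPM in either library, with all kept barcodes (left) and without the 71 members (right); dashed lines mark 2-fold, and genes at 0 in a library are not drawn. Pseudogenes (red) lie mostly above the upper line with members, 189 of 233, and 0 of 40 do without them.

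On the question of whether the counts are those of mouse cells, the files give values only from mouse genes. The median ratio of members over others was 0.0170 for the T cell list, 0.0213 for the MHC class I list and 0.0238 for the nuclear RNA list. Pseudogenes took 26.8% of UMIs in members and 0.429% in the others. Whether the barcodes hold RNA of another species counted against mouse genes was not tested, since the reads were not used here.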

How the data were processed

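The data are 2 droplet libraries, 1 per group, grouped by their labels SAP and Control. The deposited counts are raw whole-number UMIs per gene and barcode. Per the file headers they come from Cell Ranger 7.1.0, and the submitters' processing notes name mm10 and Seurat. For filters before deposit and alignment settings, the sources used here give nothing. The files hold 19144320 UMIs in 5203 SAP barcodes and 19142384 in 5737 Control barcodes. Of 55357 gene identifiers, 52081 were found in GENCODE M21, which gave gene classes, 13203 pseudogenes and coordinates. The members and gene lists were chosen with earlier results of these data known.

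UMIs were summed over members and over the others and scaled to CPM. Ratios have exact conditional binomial 95% intervals and shares exact Clopper-Pearson intervals; they cover counting error only, and barcodes of 1 library are not replicates. A gene was eligible with 100 CPM in either set and 50 UMIs over both, and 4-fold (2-fold between SAP and Control members) was the limit used for counting. Named genes were the 15 highest and 15 lowest ratios on the same side of 1 in both libraries, the 12 pseudogenes with most member UMIs, all list genes, the 8 highest and 8 lowest SAP over Control member ratios, and the 12 genes most inside members, with ties broken by member UMIs after values were seen. Of the highest and lowest ratios, examples are printed. Pseudogenes were matched to protein-coding transcripts of M21 with blastn (BLAST+ 2.17.0), each to its best hit, and a family is a coding gene with its matched pseudogenes. Simulated counts with known changes served as a check of the computation: for members over others, over 55357 genes, the interval fell on the correct side of 1 for 91.8% of 2-fold and 98.1% of 4-fold changes. Python 3.11.15, numpy 2.4.6, scipy 1.17.1, pandas 2.3.3 and matplotlib 3.10.9 were used; edgeR 4.0.16 gave TMM factors only, with no test. Alternatives changed the thresholds, filters, scaling and summing. Of the nuclear RNA list's 19 symbols, 17 were found. No doublet caller was run.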

Additional observations from a re-analysis of the deposited data

Results flagged for a closer look

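Outside the members, 18 kept barcodes (10 SAP and 8 Control) held 20% or more of their UMIs on pseudogenes, a signal in barcodes that no comparison singles out. They had 595 to 1710 UMIs, 29.6% to 40.9% pseudogene UMIs, at most 2 Folr1 UMIs and at most 16 Rps19-ps6 UMIs. Pooled over their 15052 UMIs, Folr1 was at 1462 CPM, Rps19-ps6 at 6777 CPM, Krt18 at 664 CPM and S100a6 at 4252 CPM. B2m had 0 UMIs in them, and the T list was at 1.96% of the level of the others.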

How the results depend on the processing

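Of 56 alternatives, 41 stayed within a set tolerance of the reported value, 15 moved past it and 0 reversed; the tolerance was 1.5 times for a count of genes and the exact counting interval for a number of members, a share or a level. The 10-fold limit gave 490 genes higher and 501 lower. The number of members ran from 44 to 57 in SAP and from 17 to 27 in Control over thresholds, mitochondrial limit, either gene alone and thinning to 3000 UMIs, which left out members under that depth. Without the CPM minimum, 1738 genes were at least 4-fold higher in members and 6198 lower. With TMM factors every log2 ratio shifted by -0.13, which gave 668 higher and 736 lower. The members' pseudogene share was 26.9% under stricter thresholds, 27.3% as the median over barcodes, 27.0% without the 4 members of high T list level, 7.59% with pseudogenes taken by name and 26.0% without Rps19-ps6. Their mitochondrial share was 0.465% under stricter thresholds, 0.438% as the median over barcodes and 0.474% without those 4. The T list level of members over others was 0.0170 as the median over the list, 0.0162 under stricter thresholds, 0.0108 as the median over barcodes and 0.0104 without those 4. Over members of 5000 UMIs or more, 2 genes, Gzma at 0.477 and Anxa1 at 0.495, were at least 2-fold lower in SAP. The cause of these changes was not tested. Leaving out those 4 members, and leaving the 18 shallow barcodes out of the others, were chosen after seeing the data. No paired analysis was possible because each group has 1 library and the labels give no shared replicate. With 1 library per group, no difference here can be set against a spread between libraries.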
